A study of Mus musculus with 8 samples.

Results

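The 10 genes described here carry glucose into the cell and through glycolysis, and many are known targets of the hypoxia factor HIF1. They are Slc2a1, Hk2, Pfkp, Aldoa, Gapdh, Pgk1, Eno1, Pkm, Ldha and Pdk1. They were picked as a pathway, by name, with earlier results of these data known, and matched by Ensembl identifier among the 39017 genes of the count table. All 10 were found, and all 10 passed the expression filter that left 18952 genes for testing.

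The libraries came from fibroblasts of E13.5 mouse embryos, either control or with Mettl3 deleted. Mettl3 encodes the methyltransferase that writes N6-methyladenosine (m6A) on mRNA, and it was removed with a tamoxifen-switched Cre recombinase (4-hydroxytamoxifen at 500 nM over 48 h). Loss of the protein and of m6A was checked after 7 days, per the labels. Whether the controls were given the drug, and which promoter drives Cre, is not stated there. In each genotype, total RNA was taken from unstressed cells, and a stress granule-enriched fraction was spun from cells given arsenite at 500 µM for 30 min. Both kinds of RNA were selected for poly(A) tails. The 4 groups, named by genotype (control or knockout) and fraction (total or granule), have 2 biological replicates each, so 8 libraries in all. Here fraction and stress change together and cannot be told apart.

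Glycolysis splits glucose into pyruvate in the cytoplasm, and lactate dehydrogenase turns pyruvate into lactate when it is not burned in mitochondria. HIF1 is a pair of a regulated alpha subunit and a constant beta subunit. It is known to raise transcription of the glucose transporter, of most glycolytic enzymes and of Pdk1, a kinase that switches off pyruvate dehydrogenase. In normal oxygen, prolyl hydroxylases of the Egln family mark the alpha subunit, and the Vhl protein sends it for destruction.

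The libraries held 67257220 to 123508539 counts. CPM values are counts scaled to a common library total, after each total was multiplied by its TMM scaling factor. Mettl3 itself was at 25.4 and 24.9 CPM in control total and 15.7 and 15.4 in control granule libraries. It was at 6.01 and 7.35 CPM in knockout total and 5.56 and 6.38 in knockout granule libraries. Its log2 fold change was -1.91 in total RNA (adjusted p = 0.0345, edgeR's quasi-likelihood test with Benjamini-Hochberg adjustment) and -1.38 in the granule fraction (adjusted p = 0.0208, same test). In total RNA that call held when either knockout total library was left out and was lost without any of the other 6 (adjusted p up to 0.429, log2 fold change -1.96 to -1.77 throughout). In the granule fraction it was lost without any one of the 4 granule libraries (adjusted p up to 0.195, log2 fold change -1.49 to -1.34). These counts cover the whole gene and do not isolate the deleted part. With 2 libraries per group, every p-value here measures only the spread between these libraries. Fibroblast markers were present in every library (10 of 10 above 1 CPM). The 6 epithelial markers summed to 51.6 and 91.8 CPM in knockout total and 212 to 719 CPM elsewhere, nearly all from Krt18, while Epcam and Cdh1 were at most 2.16 CPM. Other cell types were low, with sums of 68.9 to 117 CPM for 8 blood markers, 6.61 to 21.1 for 6 endothelial, 6.01 to 40.6 for 6 neural and 2.41 to 8.03 for 6 muscle markers. The knockout total replicates stood apart from each other: their median absolute log2 ratio over 10261 genes was 0.813, against 0.101 to 0.312 in the other groups. Mitochondrially encoded genes took 7.60% of counts in knockout total replicate 1 and 6.16% and 8.81% in the knockout granule libraries, against 0.590% to 0.881% in the other 5. The part of these differences in the results was not tested beyond the refits given beside them.

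HIF1 binds DNA at a short core that reads ACGTG or GCGTG. RefSeq start-site windows (GRCm38.p6, 250 bases before to 50 after each start) were available for all 10 genes, 17 windows in total. ACGTG or its reverse complement CACGT occurred in a window of 7 of the 10 genes, against 21.8% of 27025 genes, and GCGTG or CACGC in 6 of the 10, against 35.2%. Those 27025 genes had 32851 windows, fewer per gene than the 10 described here. The upstream stretch nearest the start that carries the first core is shown for 5 of the 7 genes with it in a window. The core is in capitals, read 5′ to 3′ on the strand of the gene.
Slc2a1, chr4:119108694-119108728 (+): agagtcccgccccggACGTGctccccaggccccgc
Hk2, chr6:82774487-82774521 (-): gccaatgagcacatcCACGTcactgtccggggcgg
Aldoa, chr7:126799361-126799395 (-): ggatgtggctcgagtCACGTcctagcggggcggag
Pgk1, chrX:106186935-106186988 (+): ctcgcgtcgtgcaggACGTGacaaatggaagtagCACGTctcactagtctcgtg
Ldha, chr7:46845741-46845789 (+): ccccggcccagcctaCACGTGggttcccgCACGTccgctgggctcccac
In the GENCODE M21 annotation the Hk2 and Pgk1 stretches lie outside genes. The Aldoa and Ldha stretches fall in introns of longer transcripts, Aldoa's also inside Fam57b, and 18 bases of the Slc2a1 stretch are in its own exon. Gapdh and Pkm also held this core and are not shown, Pkm because its upstream match lies wholly inside an annotated exon. Hk2 and Ldha each hold another upstream match, farther from the start and not shown. The start of the Ldha window shown is not in a GENCODE transcript. The other Ldha window, whose start is in one, lacks this core, as does 1 window each of Aldoa and Pkm. In Ldha the palindrome CACGTG reads as the core on both strands. These are letter matches, and no binding was measured. Pfkp, Eno1 and Pdk1 had no ACGTG in their windows, and each had at least 1 GCGTG.

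Per transcript length and among the 10 genes, mRNAs from Aldoa to Ldha in pathway order had higher group means than Slc2a1, Hk2, Pfkp and Pdk1. On the TPM scale (counts per kilobase of exon, scaled to one total), Pkm was highest of the 10 in every group, at 4113 and 3115 in control total, 3830 and 4121 in control granule, 1047 and 1767 in knockout total and 1822 and 1833 in knockout granule. Its 2 libraries lay above both libraries of the next gene in all 4 groups. Gapdh, Eno1, Aldoa, Pgk1 and Ldha followed, with group means between 356 and 1611 TPM, and several neighbours overlapped within a group. In knockout total RNA no neighbours among these 5 could be separated from each other. Slc2a1 (119 to 191 TPM as group means), Hk2 (47.3 to 79.9), Pfkp (11.6 to 19.5) and Pdk1 (9.07 to 14.5) came next in that order in every group, and only Pfkp and Pdk1 in knockout total overlapped. Among all genes with a count, Pkm stood at percentile 99.7 or above and Pdk1 between percentiles 68.5 and 70.2. Using the longest transcript instead of the exon union raised Pfkp to 43.0 TPM in control total but left the last 4 in the same order.

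**Figure D1:**
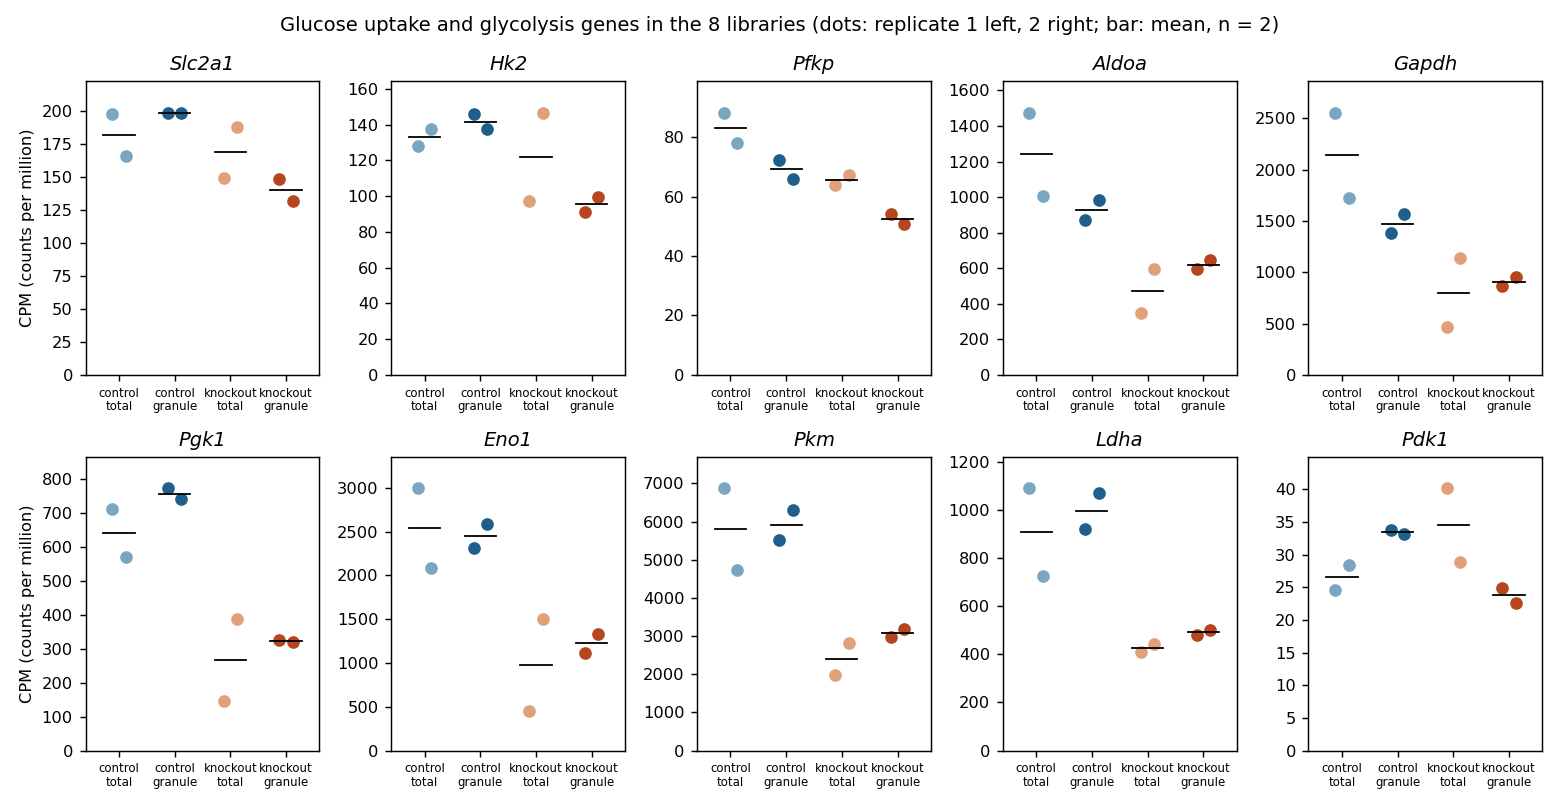
CPM (y axis, linear from 0) of each of the 10 genes in the 4 groups; dots are libraries, replicate 1 to the left, and bars are means of 2. In the 6 genes from Aldoa to Ldha both control groups lie above both knockout groups, whereas Slc2a1, Hk2 and Pdk1 separate only in the granule fraction in that direction.

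The mRNAs for glucose uptake and entry into glycolysis were at 67.3 to 75.9% of control in the knockout granule fraction. Slc2a1 (chr4:119108711-119137983), the GLUT1 transporter that lets glucose across the plasma membrane, was at 198 and 166 CPM in control total and 149 and 188 CPM in knockout total libraries. In the granule fraction it was at 199.1 and 198.5 CPM in control and 149 and 132 CPM in knockout. The total groups overlapped and the granule groups did not. The knockout granule mean was 70.7% of control (66.3 to 75.1% over the 4 pairings of libraries). Hk2 (chr6:82725025-82774454), the hexokinase that traps glucose as glucose phosphate, was at 128 and 138 CPM in control total, 97.4 and 147 in knockout total, 146 and 137 in control granule and 91.3 and 99.3 in knockout granule. Here too only the granule groups separated, at 67.3% of control. Pfkp (chr13:6579768-6648777), an isoform of phosphofructokinase, which makes the committed step, was at 88.3 and 78.2 CPM in control total and 64.1 and 67.4 in knockout total. It was at 72.4 and 66.0 CPM in control granule and 54.1 and 50.9 in knockout granule. Both fractions separated the genotypes, at 78.9% and 75.9% of control. Lower knockout values without overlap were also seen in 36.6% of all genes in the granule fraction and 24.7% in total RNA.

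The 6 enzymes from aldolase to lactate dehydrogenase had lower counts in the knockout in both fractions, with no overlap between genotypes in either. Of all genes, 24.7% showed such lower knockout values in total RNA and 36.6% in the granule fraction. The share of all genes lower in both fractions was not counted. Aldoa (chr7:126795234-126800751), which splits fructose bisphosphate, was at 1476 and 1008 CPM in control total, 348 and 593 in knockout total, 872 and 984 in control granule and 593 and 648 in knockout granule. The knockout mean was 37.9% of control in total RNA and 66.9% in the granule fraction. Gapdh (chr6:125161715-125166467), the dehydrogenase that makes the first NADH, was at 2557 and 1722 CPM in control total and 464 and 1138 in knockout total. Its granule values were 1378 and 1566 CPM in control and 864 and 956 in knockout, or 61.8% of control. Gapdh is often used as a reference gene, and its knockout libraries lay below its control libraries in both fractions.

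Pgk1 (chrX:106187100-106203699), the first ATP-making kinase of the pathway, showed the lowest granule level relative to control of the 10. It was at 772 and 739 CPM in control granule and 325 and 320 in knockout granule libraries, 42.7% of control with pairings from 41.4 to 44.0%. In total RNA it was at 710.2 and 571 CPM in control and 147 and 387 in knockout. The 2 knockout total libraries thus differed more from each other than the 2 control libraries did. Eno1 (chr4:150236721-150248879), the enolase that makes phosphoenolpyruvate, was at 2996 and 2081 CPM in control total, 449 and 1503 in knockout total, 2309 and 2582 in control granule and 1115 and 1334 in knockout granule. Its knockout mean was 38.5% of control in total RNA, with pairings from 15 to 72.2%, and 50.1% in the granule fraction. Pkm (chr9:59656368-59679375), the pyruvate kinase that closes glycolysis, was at 6875 and 4734 CPM in control total and 1990 and 2827 in knockout total. It was at 5531 and 6300 CPM in control granule and 2971 and 3197 in knockout granule, 52.1% of control. These counts do not separate the splice forms of Pkm.

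At the branch after pyruvate, the 2 genes differed. Ldha (chr7:46841475-46855627), which makes lactate, was at 1091 and 724 CPM in control total and 410 and 444 in knockout total, 47.1% of control. It was at 922 and 1070 CPM in control granule and 481 and 502 in knockout granule, 49.4% of control. Its 4 knockout values thus lay between 410 and 502 CPM, below all 4 control values. Pdk1 (chr2:71873224-71903858), the kinase that switches off pyruvate dehydrogenase, was at 24.6 and 28.5 CPM in control total and 40.2 and 28.9 in knockout total, 130% of control. In the granule fraction it was at 33.7 and 33.2 CPM in control and 24.9 and 22.6 in knockout, 71.0% of control. It was the only one of the 10 whose total RNA mean was higher in the knockout, and those 2 groups were close to overlapping.

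**Figure D2:**
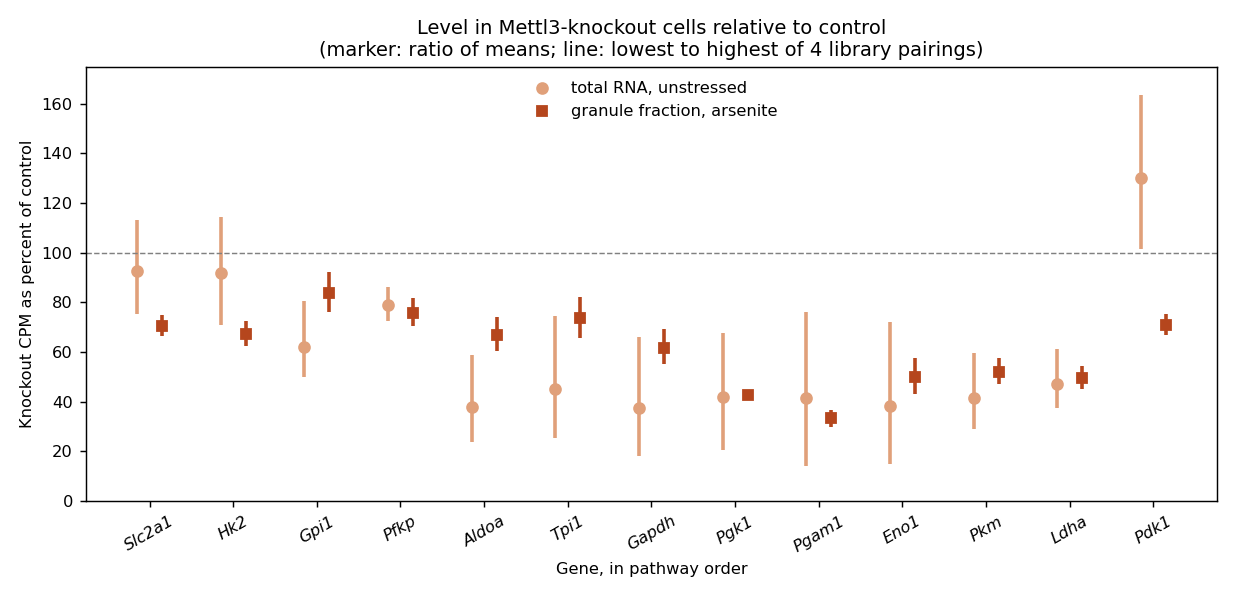
Knockout mean CPM as a percentage of the control mean (y axis) in pathway order (x axis), for total RNA (circles) and granule fraction (squares), with lines from the lowest to the highest of the 4 library pairings. From Aldoa to Ldha every line lies below 100%, and the granule lines are shorter than the total RNA lines.

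As a share of all counts, the 10 genes took 1.63% and 1.22% in control total, 1.17% and 1.31% in control granule, 0.375% and 0.768% in knockout total and 0.691% and 0.732% in knockout granule libraries. The 95% Wilson intervals were within 0.003 percentage points of these values and cover counting error only. All 4 knockout libraries lay below all 4 control libraries. With mitochondrially encoded counts left out of the denominator the range was 0.406% to 1.64%. Bulk counts cannot tell fewer cells making an mRNA from less of it in each cell.

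In the fit of all 8 libraries, 0 of the 10 genes were called at an adjusted p under 0.05 between knockout and control in the granule fraction, where 9.45% of all genes were called. The comparison asks what loss of Mettl3 changes in the granule-enriched RNA. All 10 log2 fold changes were below 0, from -0.40 (Pfkp) to -1.23 (Pgk1), with a median of -0.64 against 0.08 over all genes. All 10 had knockout values below both control values, which 36.6% of all genes also showed. Unadjusted p was under 0.05 for Pgk1, Pkm and Ldha, 3 of the 10, against 27.9% of all genes. The lowest adjusted p was Ldha's (0.0586, edgeR's quasi-likelihood test with Benjamini-Hochberg adjustment), at a log2 fold change of -1.02 ± 0.28 (SE). DESeq2 called these 3 (17.8% of all genes).

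The granule comparison depended on whether the knockout total libraries entered the estimate of spread. In the edgeR fit of the 4 granule libraries alone, all 10 genes fell, with adjusted p from 1.18e-06 (Pgk1) to 0.00433 (Pfkp), and 57.3% of all genes were called. Without both knockout total libraries, 9 of the 10 were called, all but Pfkp (edgeR adjusted p = 0.0621), with 41.5% of all genes called. Without knockout total replicate 1 the count was 9, and without replicate 2 it was 10, with 39% and 38.9% of all genes called. Limma's voom with a weight per library called 10 of 10 and 55.2% of all genes, and gave the knockout total libraries weights of 0.152 and 0.163 against 2.23 to 3.23 for the granule libraries. With the GC trend of each library removed, edgeR called 6 of 10 (23.9% of all genes), and without an expression filter 4 of 10 (11.2%). In the fit of all 8 libraries, leaving out either control granule library ended all calls, 0 of all genes. Over the 20 alternatives Ldha's adjusted p ranged from 1.55e-05 to 0.325, and its log2 fold change from -1.19 to -0.84. Lower values were not particular to these genes. Among 12 mRNAs of a separate reference list, 11 had log2 fold changes below 0, with a median of -0.84.

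In unstressed total RNA, the comparison of knockout with control also called 0 of the 10 (0.412% of all genes were called). The 6 genes from Aldoa to Ldha had log2 fold changes of -1.09 to -1.42, all with unadjusted p under 0.05 (24.8% of all genes), and edgeR adjusted p of 0.117 to 0.169. Slc2a1, Hk2 and Pfkp had values of -0.11, -0.12 and -0.34, and Pdk1 0.38 ± 0.27 (SE). Genotypes did not overlap in 7 of the 10 in the lower direction (24.7% of all genes) and in Pdk1 in the higher direction (24.4%). DESeq2 called 5, all lower (Aldoa, Gapdh, Pgk1, Pkm and Ldha, against 12.9% of all genes), and voom called 0 (0.206%). Without an expression filter edgeR called the 6 genes from Aldoa to Ldha (11.2% of all genes), and in the fit of the 4 total RNA libraries alone it called 0 of all genes.

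Leaving out a knockout total library changed the total RNA estimates by amounts that differed between genes. Without replicate 1, edgeR called Aldoa (adjusted p = 0.025), Pkm (0.0317) and Ldha (0.0321), and 5.52% of all genes. Without replicate 2 it called 7, the 6 genes from Aldoa to Ldha lower and Pdk1 higher, with 47.8% of all genes. Eno1 moved most between these fits, from -0.75 to -2.39 on the log2 scale, and Ldha least, -1.03 to -1.04. A single library then stands for the knockout group and is assumed to vary like the others.

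**Figure D3:**
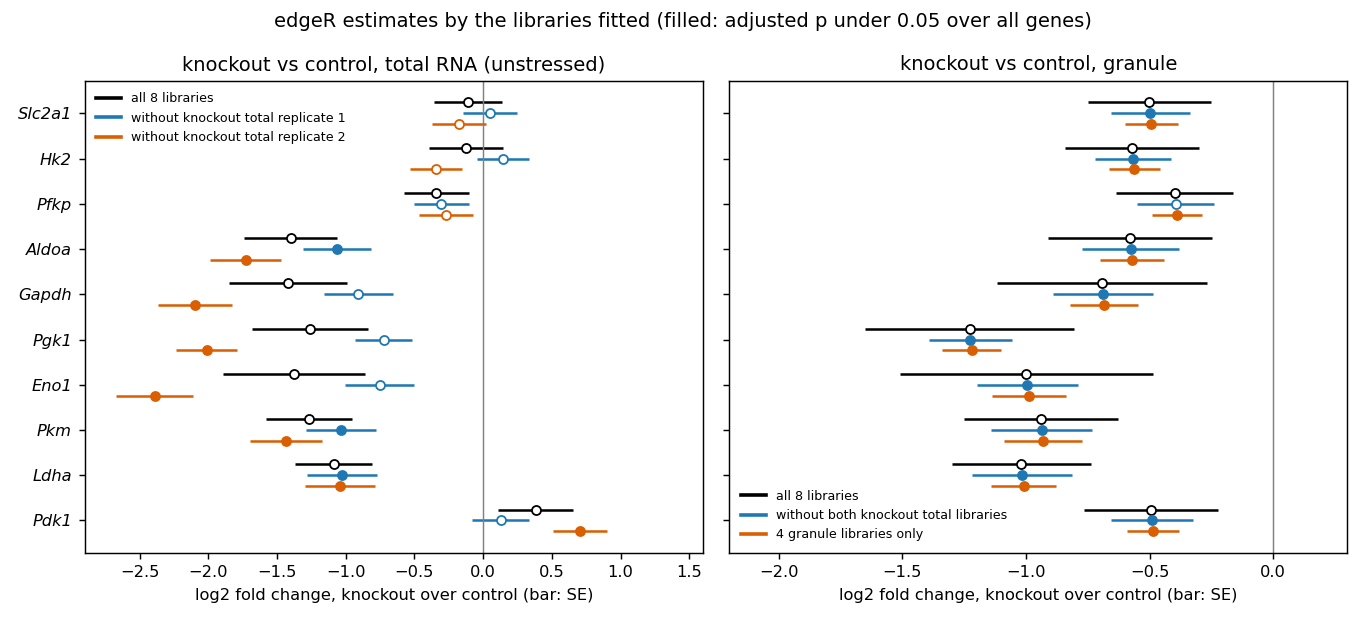
Log2 fold change of knockout over control (x axis; bars are SE) for the 10 genes, by the libraries fitted, in total RNA (left) and the granule fraction (right); filled points have an adjusted p under 0.05 over all genes. The granule estimates stay in place while their errors shrink without the knockout total libraries, and the total RNA estimates of Gapdh, Pgk1 and Eno1 shift with the library left out.

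The split between the knockout total replicates followed base composition across genes (Spearman rho -0.734 with transcript GC content over 10261 genes, which are not independent replicates). The difference between the control total replicates also followed it, with the opposite sign (rho 0.764). In the granule groups rho was -0.155 (control) and 0.041 (knockout). Replicate 1 was lower than replicate 2 by 1.74 on the log2 scale for Eno1, 1.39 for Pgk1 and 1.29 for Gapdh, and by 0.77 for Aldoa, 0.59 for Hk2 and 0.51 for Pkm. Ldha and Pfkp were within 0.12, and Pdk1 was higher by 0.47. GC content ran from 46.4% in Pdk1 to 57.7% in Pkm, with a median of 50.5% over 15389 coding genes. Pgk1 was at 49.7%. With the GC trend removed, the 6 genes from Aldoa to Ldha had total RNA values of -0.64 to -1.28, with Pkm moving from -1.27 to -0.64 and Aldoa from -1.40 to -0.86. Slc2a1 moved from -0.11 to 0.25 and Pdk1 from 0.38 to 0.03, and edgeR called 0 of the 10 (3.75% of all genes).

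**Figure D4:**
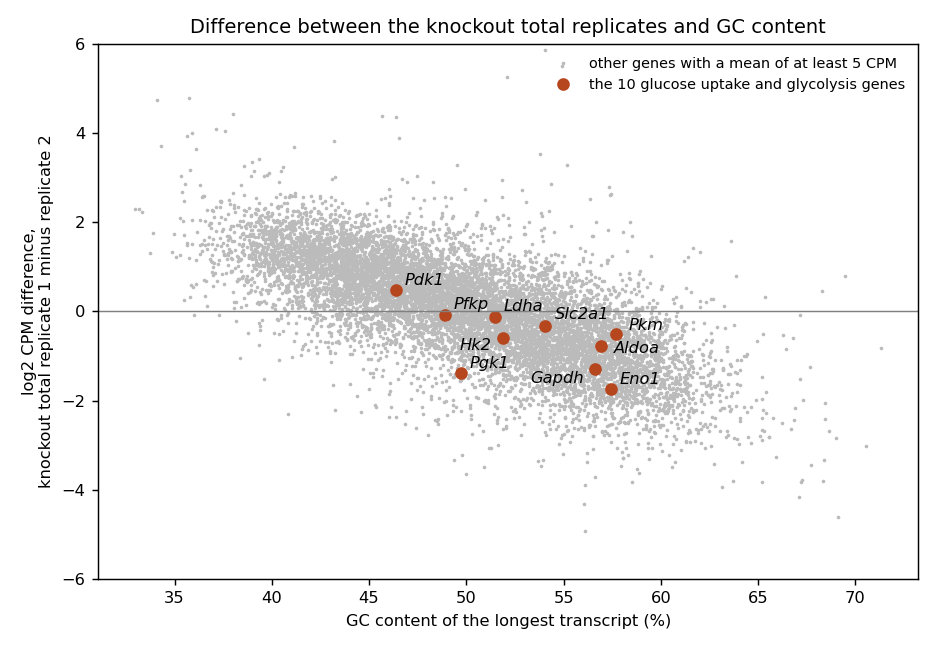
Difference in log2 CPM between the knockout total replicates (y axis) against GC content of the longest transcript (x axis), 1 dot per gene with a mean of at least 5 CPM. Eno1, Gapdh and Pgk1 sit lowest of the 10 genes and Pdk1 highest, and GC-rich genes in general lie below 0.

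Between fractions, the values of some of the 10 genes in knockout cells turned on which total library was used. Without knockout total replicate 1 the log2 fold change of granule over total was 0.14 for Ldha and -0.37 for Pfkp. Without replicate 2 these were 0.13 and -0.42, so both moved little, while Gapdh, Pgk1 and Eno1 changed sign. In the fit without knockout total replicate 2, log2 fold changes of granule over total were 1.32 for Eno1, 1.002 for Pgk1, 0.84 for Gapdh and -0.89 for Pdk1, and without replicate 1 Eno1 was at -0.30. In control cells 0 of 10 were called, against 10.1% of all genes. Log2 fold changes of granule over total ran from -0.54 (Gapdh) to 0.33 (Pdk1), with a median of 0.06 against -0.06 over all genes. In knockout cells, with both total libraries in the fit, 0 of 10 were called, against 17.6%, with values from -0.54 (Pdk1) to 0.40 (Aldoa) and a median of 0.19 against 0.04. No member had an unadjusted p under 0.05 in either genotype (30% and 34.3% of all genes), and DESeq2 and voom each called 0 (DESeq2 called 21.3% and 26.9% of all genes, voom 39.3% and 5.69%). Gapdh in control cells was called lower in the granule fraction without knockout total replicate 1 (edgeR adjusted p = 0.0456, where 40.6% of all genes were called) or without both knockout total libraries (43.7%). Over 20 alternatives its adjusted p ran up to 0.873.

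In knockout cells, leaving out a knockout total library changed these calls: Hk2 was called lower without replicate 1 (34% of all genes). Without replicate 2, Aldoa, Gapdh, Pgk1 and Eno1 were called higher and Pdk1 lower (48.2%). The difference between genotypes in the granule to total ratio was called for 0 of the 10 by edgeR, DESeq2 and voom (0.517%, 14.4% and 3.92% of all genes). No member had an unadjusted p under 0.05 (25.8% of all genes), Pdk1 being nearest (-0.88 ± 0.38 SE, edgeR adjusted p = 0.195). Pdk1's granule to total log2 ratio was 0.33 in control and -0.54 in knockout cells. Without knockout total replicate 2, 5 of the 10 were called for this difference, 4 higher and Pdk1 lower (46.4% of all genes).

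The 6 genes with the lowest knockout to control ratios in total RNA had the shortest transcripts of the 10. The longest coding transcripts of Aldoa, Gapdh, Pgk1, Eno1, Pkm and Ldha measured 1420 to 2432 nt, and those of Slc2a1, Hk2, Pfkp and Pdk1 3260 to 5513 nt, with a median of 3027 nt over coding genes. GGACT, a common core of the m6A consensus, occurred 7 times in Pkm, 4 in Pgk1, 10 in Hk2 and 0 times in Aldoa. Per kilobase this ranged from 0 to 2.88, with a median of 1.06 over coding genes, of which 8.16% had none. No m6A was mapped in these files. Near-identical copies held 1.08 to 2.06% of the Gapdh count (72 copies) and at most 0.720% of that of Eno1. How reads that match several copies were counted is not stated, so these counts do not show how many such reads were lost. The values of Gapdh, Eno1, Pgk1, Pkm and Ldha, which all have annotated copies, are uncertain to that extent. Pgk1-rs7 and Gm5537 are identical to Pgk1 over 1255 and 1252 nt, and Gm6560 matches Pkm at 98.4% over 1593 nt. In Pkm, 15.3% of exon bases overlap the annotated gene Gm49759 on the same strand. In Pfkp, 5.58% overlap Pitrm1 on the opposite strand, whose reads cannot be told apart without strand.

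Across the 8 libraries, 9 of the 10 genes followed the mean of their standardised log2 CPM profiles, with r from 0.79 (Pfkp) to 0.94 (Pgk1), each gene being part of that mean. Pdk1 did not, with r = 0.01. Mettl3, the genes of every list used here, cell type markers included, and genes under a mean of 5 CPM were left out of the next ranking. The remaining profiles most like the mean were those of Eif3b (r = 0.997), Cdk18 (0.995), Reep4 (0.994), Snd1 (0.993) and Crcp (0.991). Eif3b, a subunit of a translation initiation factor, was at 1066 and 884 CPM in control total and 1019 and 1015 in control granule libraries. It was at 511 and 713 CPM in knockout total and 535 and 544 in knockout granule libraries. These r values describe 8 libraries that share the depth and composition differences above.

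Of 30 other glycolysis genes, 23 had total RNA log2 fold changes below 0 and 7 above, with a median of -0.67. The edgeR fit called 0 (0.412% of all genes), and 11 had an unadjusted p under 0.05 (24.8% of all genes). The 3 described next were chosen after their values were seen. Gpi1, which converts glucose phosphate to fructose phosphate, was at 62.0% of control in total RNA and 84.0% in the granule fraction. Tpi1, which interconverts the triose phosphates, was at 45.0% and 73.5%. Pgam1, the mutase between Pgk1 and Eno1, was at 41.4% and 33.3%, with 282 and 295 CPM in control granule against 104 and 88.1 in knockout granule libraries. Genotypes did not overlap for these 3 genes in either fraction (lower in 24.7% and 36.6% of all genes), and edgeR called none of the 3 (unadjusted p under 0.05 for Gpi1 and Tpi1 in total RNA and for Pgam1 in the granule fraction). DESeq2 called Tpi1 in total RNA and Pgam1 in the granule fraction (12.9% and 17.8% of all genes).

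In the granule fraction, single genes of the other lists rose or fell in the knockout, at shares to be read against the 9.45% of all genes called there. Of 30 other glycolysis genes tested, 3 rose and 1 fell, with a median log2 fold change of -0.14 (all genes 0.08). Bpgm, the bisphosphoglycerate mutase, was at 22.6 and 21.5 CPM in control and 77.5 and 54.5 in knockout granule libraries, a log2 fold change of 1.58 ± 0.28 (SE, edgeR adjusted p = 0.0168). The transporter gene Slc2a3 was at 4.33 and 4.83 CPM in control and 12.5 and 8.68 in knockout. Aldoc and Pfkfb1, the other 2 called, had means under 5 CPM and log2 fold changes of 1.46 and -1.30. Of 13 genes for the carriage of pyruvate into mitochondria and its use there, pyruvate dehydrogenase and its regulators included, 2 fell and none rose. Dlat, the acetyltransferase subunit of pyruvate dehydrogenase, was at 102 and 95.04 CPM in control and 25.5 and 25.6 in knockout, and Pdha1, its alpha subunit, at 145 and 136 against 43.8 and 41.0. Their log2 fold changes were -1.95 and -1.73 (edgeR adjusted p = 0.0264 and 0.0114). Of 9 pentose phosphate genes edgeR called 0, and 8 had values below 0. An unadjusted edgeR p under 0.05 was found for 4 of the 9, against 27.9% of all genes.

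Of 36 other HIF1 targets, 3 rose and 2 fell in the knockout granule fraction, with a median of -0.18. Loxl2, a collagen cross-linking oxidase, was at 15.6 and 13.9 CPM in control and 36.4 and 72.2 in knockout, and Rora, a nuclear receptor, at 14.1 and 13.2 against 54.3 and 50.3. Tfrc, the transferrin receptor, was at 169 and 161 CPM in control and 58.6 and 58.5 in knockout. Egln3, a prolyl hydroxylase that is also a HIF1 target, was at 68.8 and 68.5 CPM in control and 156 and 124.3 in knockout (log2 fold change 1.03 ± 0.27 SE, edgeR adjusted p = 0.0495). It was the only one of 15 HIF regulators called in this comparison. None of the 8 genes named here above 5 CPM was called when any single one of the 4 granule libraries was left out, with adjusted p up to 0.347. Over these lists together, 11 genes were called by edgeR (9.45% of all genes) and 20 by DESeq2 (17.8%). The fit of the granule libraries alone called 71 (57.3%). The lists had 30, 13, 9, 15 and 36 tested genes, some of them shared between lists.

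Among the regulators, edgeR's fit of all 8 libraries called Hif1a in 0 comparisons. Alternatives called it in 6 of 20 (granule over total, control), 2 of 19 (the same, knockout), 3 of 19 (genotypes, total RNA), 5 of 20 (genotypes, granule) and 3 of 18 (interaction). It was at 72.4 and 140.3 CPM in control total, 260.4 and 239 in control granule, 554 and 126 in knockout total and 157 and 128 in knockout granule libraries. Knockout total replicate 1 was thus far above replicate 2, and the granule genotypes did not overlap (57.1% of control). Vhl was at 42.0 and 39.9 CPM in control total, 25.4 and 28.4 in control granule, 21.4 and 42.0 in knockout total and 29.5 and 27.0 in knockout granule, with overlap of genotypes in both fractions. Egln1, the main oxygen-sensing hydroxylase, was at 136 and 133 CPM in control granule and 84.1 and 82.8 in knockout granule, 62.0% of control, with an edgeR adjusted p of 0.0983. Its total RNA values overlapped, at 89.9 and 80.4 CPM in control and 86.4 and 91.3 in knockout. In total RNA, edgeR and voom each called 0 of all the listed pathway genes (0.412% and 0.206% of all genes). Of the listed genes, 38 had an unadjusted edgeR p under 0.05 (24.8% of all genes), and DESeq2 called 15 (12.9%).

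Between fractions, called genes of these lists also moved in both directions. In control cells 7 were called, where 10.1% of all genes were. Among them, Wsb1 (2.19), Pdp1 (2.02) and Crebbp (1.598) were higher in the granule fraction on the log2 scale, and Stc2 (-2.46), Ndrg1 (-1.41) and Egln3 (-1.35) lower. Pdp1 is the phosphatase that switches pyruvate dehydrogenase on and so opposes Pdk1. In knockout cells 24 were called, 13 higher and 11 lower, where 17.6% of all genes were called. The highest above 5 CPM were Loxl2 (3.79), Bpgm (2.10), Rora (1.84), Eno2 (1.76) and Crebbp (1.55), and the lowest were Ero1l (-3.03), Dlat (-2.06), Prps1 (-2.01), Arnt2 (-1.85) and Stc2 (-1.61). In control cells, edgeR called 0 of these genes when any 1 of the 4 control libraries was left out, 1 without either knockout granule library, and 44 without either knockout total library (40.6% and 39.9% of all genes). In knockout cells it called 2 without knockout granule replicate 1, 3 without replicate 2, 11 without either control granule library, 46 without knockout total replicate 1 (34%) and 60 without replicate 2 (48.2%).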

How the data were processed

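Poly(A)-selected RNA from 8 mouse fibroblast libraries (4 groups of 2) was analysed from the authors' deposited table of raw read counts per gene. The submitters' processing notes name STAR, DESeq2 and the GRCm38 (mm10) build. The counting tool, its annotation and its strand setting are not given in the sources used here. Ensembl identifiers were matched to GENCODE M21, 37693 of 39017, and unmatched identifiers held 0.168 to 0.221% of counts. Genes were kept by edgeR's expression filter, 18952 in all, and scaled by TMM factors. All 8 libraries entered 1 quasi-likelihood fit with 1 coefficient per group (R 4.3.3, edgeR 4.0.16), and genes were called at a Benjamini-Hochberg adjusted p under 0.05 over all genes tested. The procedure was tested on simulated data. DESeq2 1.42.0 and limma 3.58.1 (voom) gave alternative tests. CPM values use library totals multiplied by the TMM factors, and TPM values use exon-union lengths. A count of 3 corresponded to 0.0243 to 0.0446 CPM by library totals without these factors. Near-identical copies were sought with blastn 2.17.0 (at least 95% identity over 100 nt). Groups came from the labels.

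The 10 genes and the gene lists were chosen with earlier results of these data known. Beyond the 10, genes are named if they are Mettl3, Hif1a, Vhl, Egln1 or Egln3, if they are among the 5 highest and 5 lowest called genes of the other lists in a comparison with a mean of at least 5 CPM, or if they are the 5 genes most like the mean profile. Gpi1, Tpi1, Pgam1, Aldoc and Pfkfb1 fall outside this rule and were chosen after their values were seen. Alternatives covered scaling, the expression filter, the test, the libraries fitted, a replicate block, a GC correction and near-identical copies. Leaving out both knockout total libraries, voom and the crossed block were chosen after seeing the data. A gene that this rule names is not reported here.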

Additional observations from a re-analysis of the deposited data

Results flagged for a closer look

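For 2 genes of the wider pathway lists, the granule to total ratio differed between genotypes by an interaction test. Aldoc, the brain-type aldolase, was at 5.88 and 4.15 CPM in control total, 3.45 and 3.06 in control granule, 0.998 and 1.72 in knockout total and 8.23 and 9.63 in knockout granule libraries. Its interaction log2 difference was 3.34 (edgeR's quasi-likelihood test, adjusted p = 0.047). Loxl2 was at 20.3 and 15.9 CPM in control total, 15.6 and 13.9 in control granule, 3.86 and 4.02 in knockout total and 36.4 and 72.2 in knockout granule libraries. Its interaction log2 difference was 4.08 ± 0.52 (SE, edgeR adjusted p = 0.0375). For both genes the granule value was below the total value in control cells and above it in knockout cells in every library. Each was called in 2 of 8 fits that left out 1 library, those without either knockout total library, with adjusted p up to 0.317 in the others.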

How the results depend on the processing

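Among single values of the 10 genes over the alternatives, 820 kept their direction and side of the threshold. Another 95 passed the threshold only in the alternative, and 45 reversed. No call could be lost, because the fit of all 8 libraries called 0 of the 10 in every comparison. For granule over total in control cells, reversed log2 values were -0.11 (Slc2a1), -0.14 (Hk2), -0.21 (Pkm) and -0.10 (Ldha) with upper-quartile factors, -0.0364 (Hk2) and -0.0889 (Pkm) with library size alone, 0.0073 (Eno1) without an expression filter, -0.00063 (Slc2a1), -0.0374 (Hk2) and -0.10 (Pkm) with a mean of at least 5 CPM, and 0.0304 (Aldoa) and 0.40 (Eno1) with the GC trend removed. Upper-quartile factors moved the median of all genes by -0.23 there, 0.15 between genotypes in the granule fraction and 0.24 in the interaction, and library size alone by -0.13 in the first and 0.19 in the last. In total RNA Egln1 reversed to -0.0386 and -0.0354 with these scalings, and Slc2a1 to 0.25 and Hk2 to 0.0219 with the GC trend removed. Vhl reversed to 0.0125 (granule over total, knockout, GC trend removed) and -0.0176 (knockout over control, granule, no filter). In the interaction Pfkp reversed to 0.19 (upper quartile), 0.13 (library size), 0.14 (5 CPM) and 0.12 (GC), Pgk1 to -0.11 and Ldha to -0.0941 without a filter, and Eno1 to -0.23, Pkm to -0.47 and Ldha to -0.0937 with the GC trend removed. Leaving out 1 library, log2 ranges that crossed 0 were, for granule over total in control, Eno1 -0.25 to 0.24, Pkm -0.17 to 0.33 and Ldha -0.0880 to 0.47, and in knockout Gapdh -0.33 to 0.84, Pgk1 -0.27 to 1.002, Eno1 -0.30 to 1.32, Hif1a -2.09 to 0.17, Vhl -0.58 to 0.27 and Egln3 -0.49 to 0.0936. For knockout over control they were Slc2a1 -0.18 to 0.0522, Hk2 -0.34 to 0.14, Vhl -0.83 to 0.0374 and Egln3 -0.41 to 0.15 in total RNA and Vhl -0.0796 to 0.13 in the granule fraction, and in the interaction Pgk1 -0.52 to 0.72, Eno1 -0.26 to 1.33 and Ldha -0.27 to 0.21. The cause was not tested.

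Counts over all genes moved most. For granule over total in control cells (1906 called) they were 4032 with DESeq2, 4001 without a filter, 1224 at 5 CPM, 7354 with only the groups compared, 3911 with the GC trend removed, 8142 without both knockout total libraries, 7448 with voom and 0 to 8118 leaving out 1 library. In knockout cells (3343) they were 5091, 5161, 1744, 0, 5920 with DESeq2, no filter, 5 CPM, only these groups and GC removed, 1079 with voom and 243 to 9707. In total RNA (78) they were 37 with library size alone, 2437 with DESeq2, 3407 without a filter, 0 with only these groups, 701 with GC removed, 39 with voom and 0 to 9627. In the granule comparison (1791) they were 3381 with DESeq2, 3404 without a filter, 813 at 5 CPM, 10359 with only these groups, 4462 with GC removed, 7746 without both knockout total libraries, 10454 with voom and 0 to 7834. In the interaction (98) they were 156 with upper-quartile factors, 2724 with DESeq2, 3476 without a filter, 46 at 5 CPM, 1600 with GC removed, 742 with voom and 0 to 9349. Of the 10 genes, 1 was called in control cells without both knockout total libraries (0 to 1 leaving out 1 library) and 0 to 5 in knockout cells. In total RNA 5 were called with DESeq2, 6 without a filter and 0 to 7 leaving out 1 library. In the granule comparison 3 were called with DESeq2, 4 without a filter, 10 with only these groups, 6 with GC removed, 9 without both knockout total libraries, 10 with voom and 0 to 10 leaving out 1 library, and in the interaction 0 to 5. Mettl3 missed the threshold in total RNA with library size alone (-2.01), only these groups (-1.91) and voom (-1.92), and leaving out 1 library (-1.96 to -1.77), and in the granule fraction leaving out 1 library (-1.49 to -1.34). The mean share of the 10 genes in knockout granule libraries was 0.770% of nuclear counts against 0.712% of all counts.

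With the replicate block, 581, 1898, 0, 670 and 0 genes were called in the 5 comparisons in the order above, 0 of the 10 in any, and Mettl3 missed the threshold at -1.92 in total RNA and -1.39 in the granule fraction. Same-numbered libraries did not deviate together (correlations -0.602 to 0.190 between pairs of groups), so the numbers are not read as pairs. With the numbers of the control total or knockout total libraries crossed, 2354, 3168 and 112 genes were called and 0 of the 10. Depth was high for all 10 genes, and the number of libraries limits precision.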
